A study of Mus musculus with 6 samples.

Results

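The genes described here are the HMG family transcription factors among the genes deposited for this study: Sox4, Sox5, Sox6, Sox15, Tcf7, Tox, Mael and Gm4969. They were found as every row whose transcription factor family is given as HMG in the deposited tables, a label that uses no expression value, and they are 8 of 2031 deposited genes and of 228 deposited genes with any transcription factor family. RNA sequencing was done on bulk RNA of cells derived from J1, a mouse embryonic stem cell line of strain 129S4/SvJae. The cells of every group were steered towards heart muscle in hanging drops, where they form aggregates called embryoid bodies within 3 days. Embryoid bodies of NC, the control (3 libraries), grew in a conventional incubator, and those of MF (3 libraries) grew where a static magnetic field was applied; which genes differ between them was the question asked. All libraries come from 1 cell line, and neither the field strength nor the collection day is known from the labels. The series calls the libraries biological triplicates without saying what was kept separate, so p-values measure the spread between these libraries.

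The HMG box is a short DNA-binding fold that fits into the minor groove of DNA and bends it. Sox proteins use it to bind short A/T-rich sites, usually beside a partner factor, and different Sox proteins mark different lineages of the embryo. Tcf and Lef proteins use the same fold to bring beta-catenin to the target genes of Wnt signalling, which in embryoid bodies acts on the exit from pluripotency and on the formation of mesoderm and heart. Tox belongs to a separate HMG branch known from T cell development, and Mael and Gm4969 are germ cell proteins that carry an HMG box.

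The deposited tables are a selection of genes that differ between the groups: in the authors' deposited table no adjusted p is above 0.0499 and no fold change is under 2. A fixed list of 46 HMG box genes, 20 of them Sox genes, had 6 deposited members, and the others, Sox2, Sox9, Sox17 and Lef1 among them, were not analysed here. The libraries held 14929232 to 19176383 counts, as worked out from FPKM and counts. The libraries numbered 2 stood apart within both groups. The summed level of 8 deposited pluripotency genes (of 27 listed) was 1023 FPKM in NC replicate 2 against 392 and 479 FPKM in the other NC libraries, and 272 FPKM in MF replicate 2 against 86.6 and 88.0 FPKM in the other MF libraries. FPKM is the number of counts per kilobase of gene, scaled to the total counts of the library.

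Of the 8 HMG genes, 5 were higher in MF (Sox5, Sox6, Tox, Gm4969 and Sox4) and 3 were lower (Mael, Sox15 and Tcf7). Over all deposited genes 63.2% were higher, so the split of the HMG genes is close to that of the table. The largest differences were in low-level genes, Sox5 at 6.31-fold and Sox6 at 5.85-fold, and the smallest were in the abundant genes Sox4 at 2.09-fold and Tcf7 at 2.21-fold. A filter at a mean of 0.5 FPKM over the 6 libraries kept 5 of the 8 genes. Sox6 passed it only through MF, at a mean of 0.289 FPKM in NC and 1.69 FPKM in MF. Among the listed genes described below, Wnt2 (0.163 FPKM in NC) and Col9a1 (0.360 FPKM in NC) also passed only through MF. With edgeR's quasi-likelihood test, adjusted by Benjamini-Hochberg over the 1651 genes kept, Sox6 and Sox4 rose and Mael, Sox15 and Tcf7 fell. The test called 97.5% of those genes, 62.1% as higher and 35.4% as lower, since the selection used these same libraries. Sox5, Tox and Gm4969 lay below the filter and were read from the same test without it, where 97.7% of 1983 genes were called, 62.8% as higher and 34.9% as lower. The calls of the HMG genes are read against that background, and the adjusted p covers the tested genes and not the genome. NC and MF did not overlap in FPKM for any of the 8 genes, as for 93% of the 1983 genes (59.3% higher, 33.7% lower) and 92.5% of the 1651 genes (58.4% higher, 34.2% lower). The authors' p-values and adjusted p-values imply 19069 tests. With that number edgeR called none of the 8, at adjusted p-values from 0.106 for Sox5 to 0.548 for Sox4. Over the same number of tests DESeq2 called Sox5 (adjusted p = 0.00016), Mael (0.00271) and Sox6 (0.0186), and edgeR with a replicate block called the same genes and Sox15 (0.0484). Of the 1651 genes kept, DESeq2 then called 479 as higher and 119 as lower, and the block 376 and 128. Without the block edgeR called 0 in either direction. Sox5 was read from the fits without a filter. "Rose" and "fell" are used below in the sense of the adjustment over the tested genes alone.

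**Figure D1:**
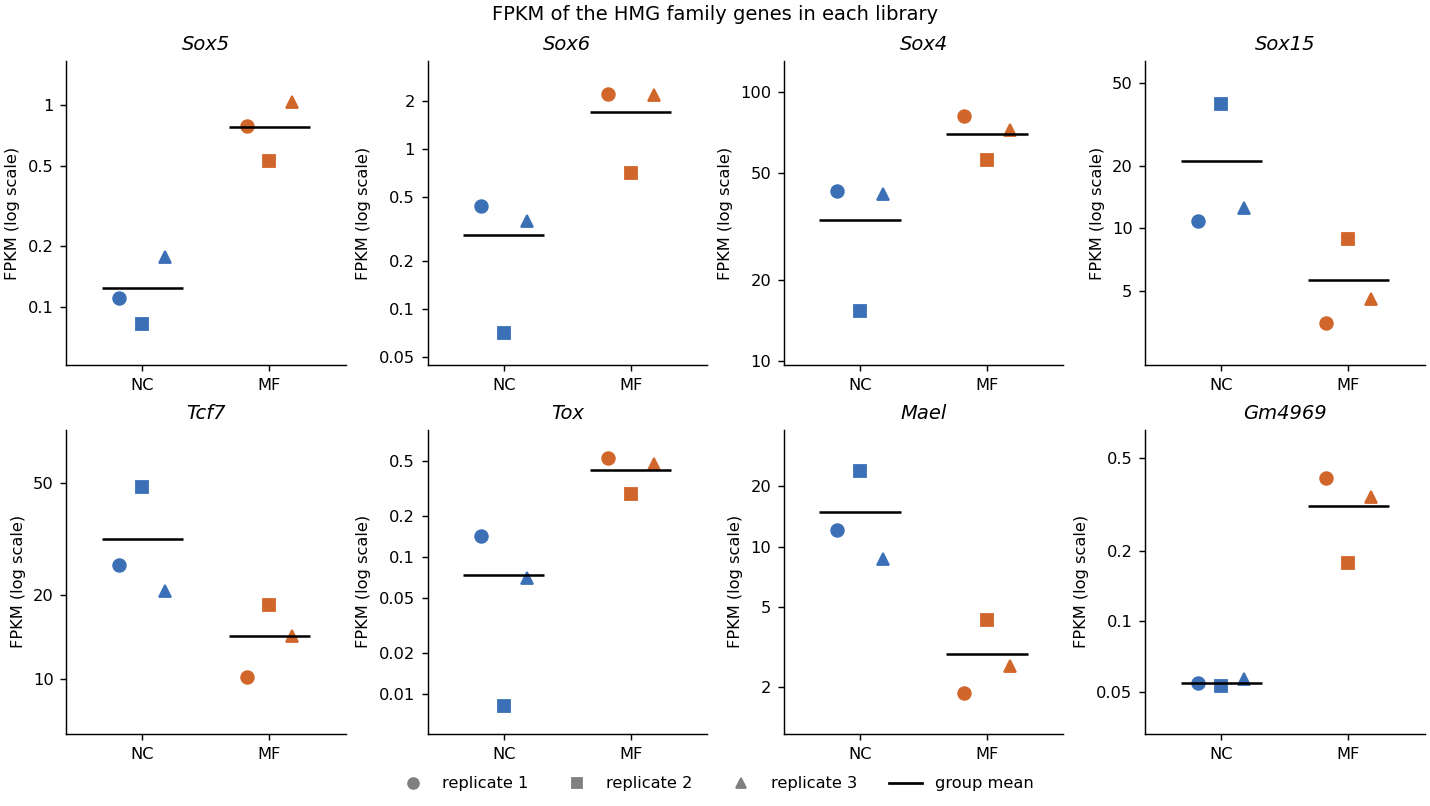
FPKM of each HMG family gene (vertical axis, log scale) in the 3 NC and 3 MF libraries, with 1 point per library, marker shape for the replicate number and a line at the group mean. The NC and MF points of all 8 genes are apart, by least for Tcf7, whose lowest NC value is 1.12 times the highest MF value.

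**Figure D2:**
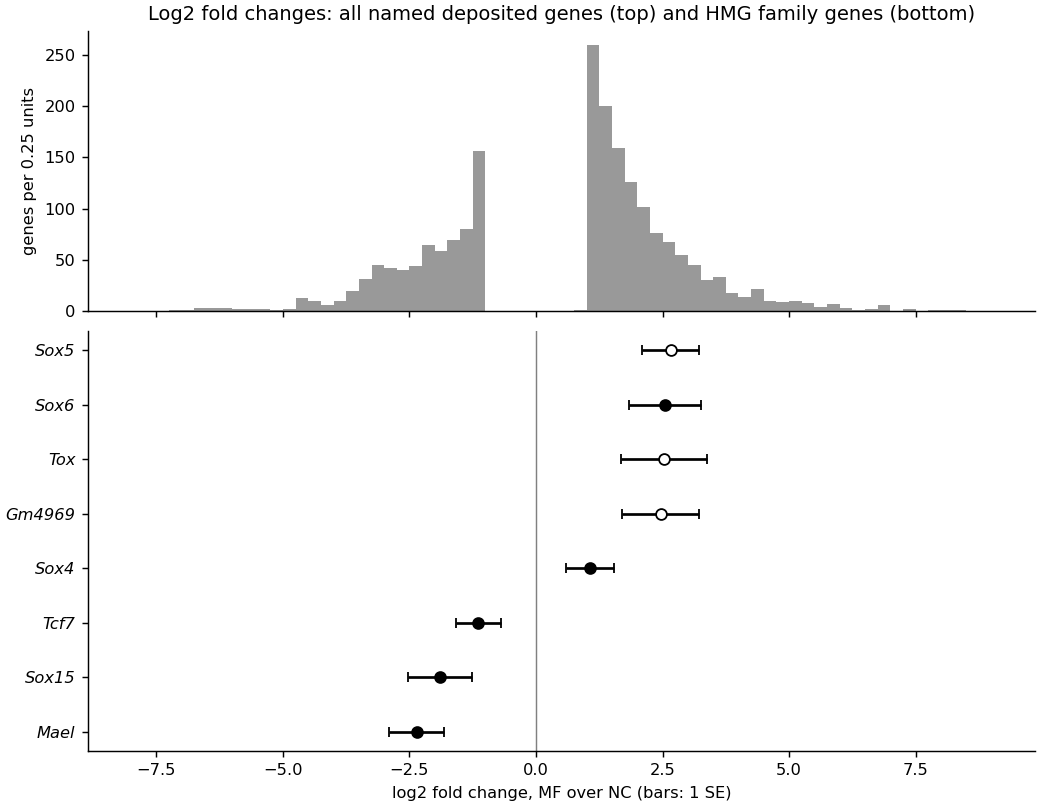
Top, number of named deposited genes by log2 fold change of MF over NC in the fit without a filter; bottom, log2 fold change of the 8 HMG family genes with 1 SE, filled where the gene passed the filter at 0.5 FPKM. The empty centre of the upper plot is the authors' threshold, and Sox4 and Tcf7 lie next to it.

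Sox5 and Sox6 are the deposited members of Sox subgroup D. These proteins have no activation domain of their own, pair through a coiled coil, and are known as partners of Sox9 in cartilage and for roles in muscle and nerve cells. Sox5 (mm10 chromosome 6, 143828425 to 144781977, minus strand) stood at 0.111, 0.0820 and 0.177 FPKM in NC replicates 1 to 3 and at 0.787, 0.526 and 1.03 FPKM in MF replicates 1 to 3. The lowest MF library was 2.97 times the highest NC library. Sox5 rose 6.31-fold (log2 fold change 2.66, SE 0.56, adjusted p = 0.0110 in the fit without a filter), from 0.123 ± 0.0487 to 0.781 ± 0.252 FPKM (SD, n = 3). Its counts were low, 82 over the NC libraries and 585 over the MF libraries. Without MF replicate 3 its adjusted p was 0.0552. The authors' deposited table gives Sox5 a log2 fold change of 2.67 and an adjusted p of 1.84e-07, the smallest of the 8.

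Sox6 (mm10 chromosome 7, 115470872 to 116038796, minus strand) stood at 0.439, 0.0711 and 0.357 FPKM in NC and at 2.20, 0.710 and 2.16 FPKM in MF. NC replicate 2 was far below the other NC libraries and MF replicate 2 far below the other MF libraries, and the groups did not overlap. Sox6 rose 5.85-fold (log2 fold change 2.55, SE 0.71, adjusted p = 0.0216), from 0.289 ± 0.193 to 1.69 ± 0.851 FPKM (SD, n = 3). Without MF replicate 3 its adjusted p was 0.0841. The ratio of Sox6 to Sox5 FPKM was 3.95, 0.867 and 2.02 in NC and 2.80, 1.35 and 2.10 in MF. Within each group the libraries numbered 2 had the lowest ratio, and the range of the MF libraries lay inside that of the NC libraries.

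The start regions of Sox5 and Sox6 are shown because both genes were higher in MF and Sox proteins bind short A/T-rich letters. The sequences are RefSeq windows on GRCm38.p6, kept to the bases before the start that lie in no exon of GENCODE M21. Capitals mark ACAAAG or ACAAT on either strand, which are Sox-like letters. The Sox5 window is chr6:143947107-143947356, minus strand, inside the gene before an internal start. The Sox6 window is chr7:116038797-116038994, minus strand, before the most upstream of 6 RefSeq starts.
Sox5: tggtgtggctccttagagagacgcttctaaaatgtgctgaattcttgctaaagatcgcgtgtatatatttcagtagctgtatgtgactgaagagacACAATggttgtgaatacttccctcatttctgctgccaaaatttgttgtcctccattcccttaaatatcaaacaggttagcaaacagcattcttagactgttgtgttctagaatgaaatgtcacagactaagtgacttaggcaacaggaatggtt
Sox6: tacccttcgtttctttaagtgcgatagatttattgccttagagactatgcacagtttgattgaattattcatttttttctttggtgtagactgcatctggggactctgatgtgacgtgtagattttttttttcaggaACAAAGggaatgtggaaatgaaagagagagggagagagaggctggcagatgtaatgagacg
The Sox5 window holds ACAAT and the Sox6 window holds ACAAAG, each at 1 place. Among 32851 windows of 250 bases before a start, 16.5% hold ACAAAG and 27.7% hold ACAAT on either strand; neither word contains the other. RefSeq windows were found for 7 of the 8 HMG genes, 13 windows in all. ACAAAG was found in 5 of the 13, all of Sox6, and ACAAT in 6 of the 13, from 4 genes (Sox5, Sox6, Sox15 and Mael). The Tcf-like letters CTTTGAT were in 1 window, of Sox6, against 3.21% of all windows. A match describes letters alone.

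Sox4, of Sox subgroup C, is an activator with a single exon that is known in progenitor cells of many tissues and is needed for the outflow tract of the heart. It lies on mm10 chromosome 13, 28948919 to 28953713, minus strand, and had the highest group mean of the 8 deposited HMG genes in NC and in MF, although in NC replicate 2 it was below Tcf7, Sox15 and Mael. It stood at 43.1, 15.4 and 41.9 FPKM in NC replicates 1 to 3 and at 81.7, 55.9 and 72.7 FPKM in MF replicates 1 to 3. NC replicate 2 was the low library and the groups did not overlap. Sox4 rose 2.09-fold (log2 fold change 1.07, SE 0.47, adjusted p = 0.0474), from 33.5 ± 15.7 to 70.1 ± 13.1 FPKM (SD, n = 3). The call was lost without any single library other than MF replicate 2. The adjusted p was 0.0751, 0.113 and 0.0700 without NC replicates 1, 2 and 3 and 0.124 and 0.117 without MF replicates 1 and 3. Without NC replicate 2 the log2 fold change was 0.72. In GENCODE M21, 2616 of the 4795 exon bases of Sox4 are also exon of Gm26735 on the opposite strand, and whether counting used strand is not stated, so reads of the pair may not be told apart. The same limit holds for smaller overlaps of Sox5 with Sox5os1 (1330 of 14376 bases), Tox with Gm11802 (260 of 7609) and Sox15 with Mpdu1 (31 of 861).

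Sox15, the single member of Sox subgroup G, is expressed in mouse embryonic stem cells and binds some of the same sites as Sox2. It lies on mm10 chromosome 11, 69655314 to 69656727, plus strand. It stood at 10.9, 39.9 and 12.5 FPKM in NC and at 3.51, 8.92 and 4.57 FPKM in MF. NC replicate 2 was more than the other NC libraries by a factor of 3.40 over their mean, and MF replicate 2 was 2.21 times the mean of the other MF libraries. Sox15 fell 3.72-fold (log2 fold change -1.90, SE 0.63, adjusted p = 0.0271), from 21.1 ± 16.3 to 5.67 ± 2.87 FPKM (SD, n = 3). MF replicate 2 reached 0.818 of the level of NC replicate 1. Without NC replicate 2 the log2 fold change was -1.05 and the adjusted p 0.0928, and without MF replicates 1 and 3 the adjusted p was 0.0709 and 0.0969.

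Tcf7 (mm10 chromosome 11, 52252371 to 52283331, minus strand) encodes the Wnt effector TCF1 and is itself a known target of the Wnt pathway. It stood at 25.7, 48.5 and 20.7 FPKM in NC and at 10.2, 18.4 and 14.3 FPKM in MF. The groups were separated by a small margin, with MF replicate 2 at 0.891 of NC replicate 3. Tcf7 fell 2.21-fold (log2 fold change -1.14, SE 0.45, adjusted p = 0.0347), from 31.6 ± 14.8 to 14.3 ± 4.11 FPKM (SD, n = 3). Without NC replicate 2 the log2 fold change was -0.69 and the adjusted p 0.115. The adjusted p was 0.0649 without NC replicate 1, 0.115 without MF replicate 1 and 0.106 without MF replicate 3. Its level was supported by 4504 counts in NC and 2229 in MF.

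Tox (mm10 chromosome 4, 6686353 to 6991557, minus strand) is an HMG factor required for T helper cell development and also found in the developing brain. Its counts were 17, 1 and 8 in NC replicates 1 to 3 and 77, 37 and 59 in MF replicates 1 to 3. In FPKM these were 0.143, 0.00816 and 0.0704 in NC and 0.528, 0.289 and 0.476 in MF, so every MF library was above every NC library at a low level. Tox rose 5.79-fold (log2 fold change 2.53, SE 0.85, adjusted p = 0.0250 in the fit without a filter), from 0.0738 ± 0.0673 to 0.431 ± 0.125 FPKM (SD, n = 3). The single count in NC replicate 2 made the NC group widest in relative terms among the 8 genes, with an SD of 91.3% of its mean. The log2 fold change was 3.44 without NC replicate 1 and 2.00 without NC replicate 2. The adjusted p was 0.0528 without MF replicate 1 and 0.0803 without MF replicate 3.

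Mael (mm10 chromosome 1, 166201201 to 166238747, minus strand) encodes Maelstrom, a protein of the piRNA pathway that silences transposons in germ cells. It stood at 12.2, 23.9 and 8.70 FPKM in NC and at 1.87, 4.33 and 2.55 FPKM in MF. The lowest NC library was 2.01 times the highest MF library, the widest gap of the genes that fell. Mael fell 5.12-fold (log2 fold change -2.36, SE 0.55, adjusted p = 0.0153), from 14.9 ± 7.98 to 2.92 ± 1.27 FPKM (SD, n = 3). Without MF replicate 3 its adjusted p was 0.0748. In the fixed list of 22 germ cell and testis genes, 11 were deposited, Mael among them, and all 11 fell, where 35.4% of all tested genes were called lower and 97.5% in either direction. Their median log2 fold change was -2.36, which is the value of Mael itself, against -1.75 over all tested genes lower in MF. The list does not hold Gm4969, a germ cell gene that was higher in MF (log2 fold change 2.47 in the fit without a filter).

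The start regions of Mael and Sox15 are set side by side as those of HMG genes that fell, with the same capitals. The Mael window is chr1:166238748-166238994, minus strand, and the Sox15 window chr11:69654787-69655036, plus strand.
Mael: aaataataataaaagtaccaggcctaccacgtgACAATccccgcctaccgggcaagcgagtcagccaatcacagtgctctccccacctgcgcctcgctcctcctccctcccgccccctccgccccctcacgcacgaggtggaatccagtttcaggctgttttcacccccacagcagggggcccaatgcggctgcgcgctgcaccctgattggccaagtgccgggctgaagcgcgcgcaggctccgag
Sox15: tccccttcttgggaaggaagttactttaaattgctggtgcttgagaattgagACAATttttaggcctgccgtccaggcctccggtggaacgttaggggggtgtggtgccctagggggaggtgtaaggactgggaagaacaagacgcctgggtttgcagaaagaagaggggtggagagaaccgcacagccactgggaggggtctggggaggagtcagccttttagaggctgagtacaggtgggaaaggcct
Each holds ACAAT at 1 place and neither holds ACAAAG or CTTTGAT. The Mael window is rich in CpG, with 18 CpG pairs in 247 bases, against 5 in the 250 bases of Sox15 and a median of 6 over all windows.

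Gm4969 (mm10 chromosome 7, 19099046 to 19118368, minus strand) is listed by RefSeq as Bhmg1 with the synonym Meiosin, and its protein is known as the partner of Stra8 in switching on meiotic genes. It had the lowest level of the 8 genes. Its counts were 4, 4 and 4 in NC and 37, 14 and 26 in MF. These equal 0.0544, 0.0529 and 0.0571 FPKM in NC and 0.411, 0.177 and 0.340 FPKM in MF, and the lowest MF library was 3.11 times the highest NC library. Gm4969 rose 5.52-fold (log2 fold change 2.47, SE 0.76, adjusted p = 0.0219 in the fit without a filter), from 0.0548 ± 0.00212 to 0.310 ± 0.120 FPKM (SD, n = 3). Since each NC count was 4, the NC SD reflects only the library totals and understates the counting error at so low a count. The adjusted p was above 0.05 without NC replicate 1 (0.0564), NC replicate 3 (0.0510), MF replicate 1 (0.0699) and MF replicate 3 (0.0756). Stra8 went the other way. It stood at 17.5, 57.3 and 9.06 FPKM in NC and at 0.260, 2.74 and 0.750 FPKM in MF, and fell by 4.48 on the log2 scale (adjusted p = 0.0127).

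The order of the group means was the same in NC and in MF: Sox4, Tcf7, Sox15, Mael, Sox6, Sox5, Tox and Gm4969. In NC the FPKM ranges of the 4 abundant genes overlapped from each to the next, as did those of the 4 low genes, and Mael (8.70 to 23.9 FPKM) was clear of Sox6 (0.0711 to 0.439 FPKM). In MF, Sox4 (55.9 to 81.7 FPKM) stood clear of Tcf7 (10.2 to 18.4 FPKM), and Tcf7 clear of Sox15 (3.51 to 8.92 FPKM). Mael (1.87 to 4.33 FPKM) and Sox6 (0.710 to 2.20 FPKM) overlapped in MF. The length used for Sox5 and Sox6 is 14376 and 14832 bases, the sum of all annotated exons, so a short transcript of these genes would be given a low FPKM.

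The libraries numbered 2 took the same place for nearly every HMG gene. Of the MF libraries, number 2 had the lowest value of all 5 genes that were higher in MF and the highest of all 3 that were lower. NC replicate 2 was the lowest NC library for those 5 and the highest for those 3, although for Gm4969 its count of 4 equalled that of the other NC libraries. Among all named deposited genes the same held for MF replicate 2 in 78.8% of the higher and 85.6% of the lower genes, and for NC replicate 2 in 69.2% and 82.5%. MF replicate 2 thus lay nearer to the NC mean than the other MF libraries for each HMG gene. Against NC replicate 2 it was 9.98 times higher for Sox6, 3.63 times higher for Sox4 and 6.41 times higher for Sox5. Against NC replicate 1 it was 1.62 times higher for Sox6 and 4.73 times for Sox5.

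**Figure D3:**
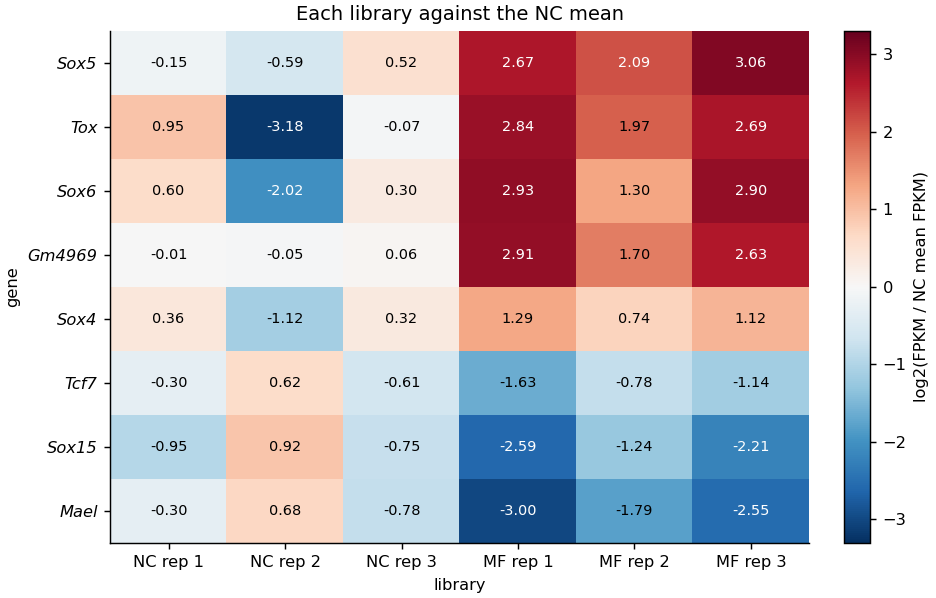
Log2 of the FPKM of each HMG family gene (rows) in each library (columns) over the NC mean of that gene, red above and blue below. The MF columns are red in the 5 upper rows and blue in the 3 lower rows, with MF replicate 2 palest of the MF columns, for example 2.09 for Sox5 against 2.67 and 3.06.

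**Figure D4:**
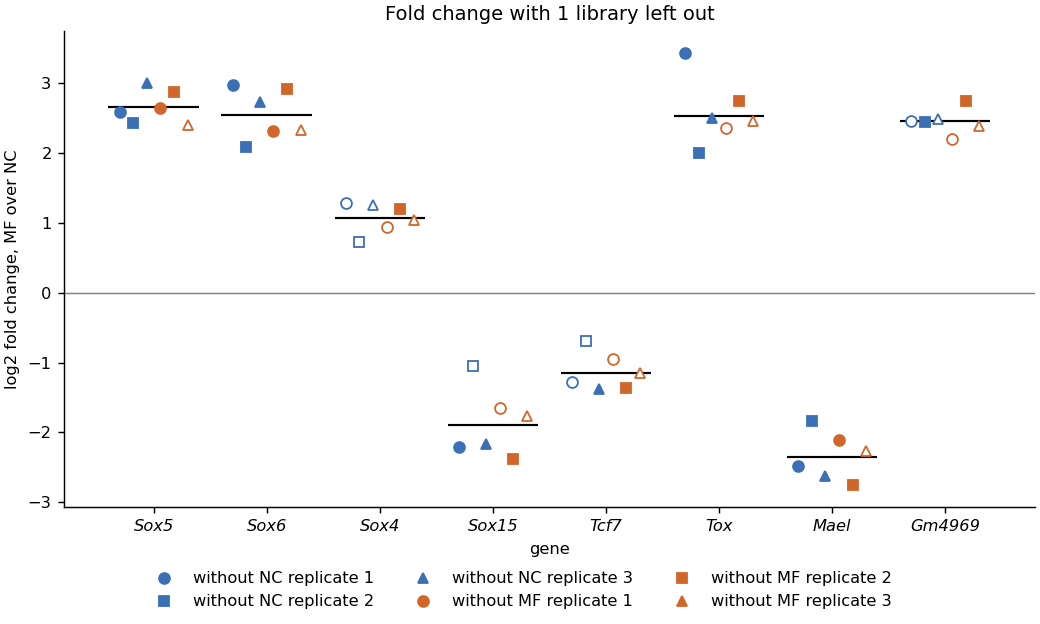
Log2 fold change of each HMG family gene (vertical axis) with 1 library left out, filled where the adjusted p is under 0.05; the line is the value over all 6 libraries. No value changes sign, in genes that were selected as differing in these same libraries. Open symbols are most frequent for Sox4, and the value of Sox15 nearest 0 is that without NC replicate 2, at -1.05.

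All fold changes above are relative to the recovered library totals. Scaling by TMM, which assumes that most genes in the table do not change, moved the median log2 fold change of the 1651 genes by -0.70, and median-of-ratios scaling moved it by -1.06. The deposited genes were selected as different, so the table does not meet that assumption. How far the selection shaped the calls lost and the falls enlarged under these scalings was not tested. The split of calls went from 1026 higher and 584 lower to 291 and 589 with TMM and to 158 and 507 with median-of-ratios scaling. No HMG gene changed direction, but Sox4 came to 0.40 (adjusted p = 0.347) and 0.07 (adjusted p = 0.908). Sox6 kept its call with TMM and not with median-of-ratios scaling (adjusted p = 0.0827). Sox5 kept it under both, at 1.93 (adjusted p = 0.0226) and 1.55 (adjusted p = 0.0332). Tox and Gm4969 lost it under both, with adjusted p-values of 0.0812 and 0.0540 for TMM and 0.169 and 0.107 for median-of-ratios scaling. Mael, Sox15 and Tcf7 fell under both, by more than with library totals. Tcf7 went from -1.14 to -1.88 with TMM and -2.22 with median-of-ratios scaling, Sox15 from -1.90 to -2.65 and -2.97, and Mael from -2.36 to -3.08 and -3.41. Relative to the median of all genes in the fit without a filter, Sox4 was at -0.21, -0.17 and -0.14 under library totals, TMM and median-of-ratios scaling, and Sox5 at 1.38, 1.38 and 1.39.

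The genes of the Wnt pathway, in which Tcf7 acts, were mostly higher in MF where they were deposited. Of 19 listed Wnt ligands 6 were deposited, and all 6 rose, in a table where 62.1% of the tested genes were called higher and 35.4% lower, a background that holds for each count of Wnt and cartilage genes. The median log2 fold change of the 6 was 1.85, against 1.62 over the tested genes higher in MF and 1.22 over all tested genes. Wnt6 went from 8.75 ± 3.78 to 32.4 ± 3.75 FPKM (SD, n = 3), and Wnt5a and Wnt5b, ligands known mainly for signalling without beta-catenin, rose 4.52-fold and 3.51-fold. Wnt2 rose 47.6-fold on average, but its level in MF replicate 2 (0.264 FPKM) was under that in NC replicate 1 (0.283 FPKM). Of 18 listed receptors 4 were deposited and all 4 rose, against the same 62.1%: Fzd4 (4.50-fold), Fzd1 (4.48-fold), Ror1 (4.42-fold) and Ror2 (2.35-fold), with a median of 2.15. Of 19 secreted modulators 6 were deposited and 5 tested, of which 4 rose and 1 fell. The median log2 fold change of those 5 was 1.48, under the 1.62 over the tested genes higher in MF. Dkk3 rose 3.37-fold, Sfrp1, which binds Wnt proteins, rose 2.27-fold, Rspo1, which strengthens Wnt signalling, rose 2.79-fold, and Dkk2 rose 12.8-fold with overlapping groups. Sfrp4 was the modulator that fell, by 2.24 on the log2 scale, and is named after its values were seen.

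Of 22 listed targets of beta-catenin 6 were deposited, 5 rose and Tcf7 fell, where 62.1% of all tested genes rose and 35.4% fell. Ccnd2, a cyclin, went from 3.75 ± 0.751 to 17.5 ± 4.64 FPKM (SD, n = 3), Nkd1, a feedback inhibitor, rose 4.62-fold, Bambi 3.06-fold and Cdx2 3.25-fold. The 6 targets had a median log2 fold change of 1.66. Without MF replicate 3 only 12 genes of the whole table, all higher, were called. No tested Wnt gene changed direction with TMM or median-of-ratios scaling. The calls among ligands, receptors, modulators and targets went from 6, 4, 4 and 5 rises to 2, 1, 2 and 2 with TMM and to 1, 0, 0 and 1 with median-of-ratios scaling. The fall of Sfrp4 was called with TMM and not with median-of-ratios scaling, and that of Tcf7 was called with both.

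Cartilage genes known to be bound by Sox5, Sox6 and Sox9 did not share a direction. Of 18 listed genes 4 were deposited and 3 passed the filter. Col9a1, a chain of cartilage collagen, stood at 0.391, 0.147 and 0.542 FPKM in NC and at 7.97, 7.38 and 8.10 FPKM in MF, and rose 21.7-fold (log2 fold change 4.44, SE 0.55, adjusted p = 0.00486). Unlike for Sox6, its MF replicate 2 was close to the other MF libraries. Col11a1 rose 4.78-fold. Acan, the cartilage proteoglycan aggrecan, fell 6.13-fold, from 1.03, 2.28 and 0.547 FPKM in NC to 0.0279, 0.478 and 0.123 FPKM in MF. With TMM the cartilage list kept 2 rises and 1 fall, and with median-of-ratios scaling it had 1 rise and 0 falls, so that the call of Acan was lost. Matn4, below the filter, was higher in MF at 1.14, 0.184 and 0.451 FPKM against 0.148, 0.0720 and 0.104 FPKM in NC.

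**Figure D5:**
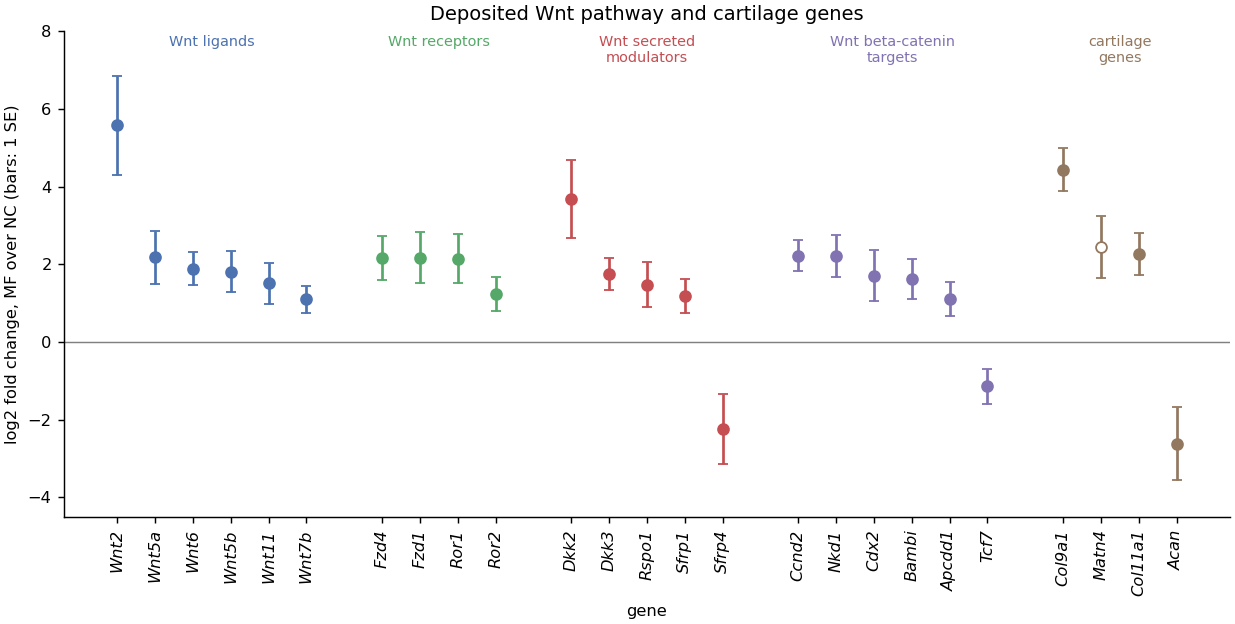
Log2 fold change of MF over NC with 1 SE for the deposited genes of 4 Wnt lists and of the cartilage list, open where the gene lay below the filter at 0.5 FPKM; Rspo2, with 1 count over the NC libraries, is not drawn. Tcf7 (-1.14), Sfrp4 and Acan lie below 0 and the other genes above it.

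Markers of several cell types moved with the HMG genes. The deposited germ cell and testis genes, Mael included, summed to between 92.1 and 326 FPKM in NC and between 20.9 and 52.6 FPKM in MF, and the 8 pluripotency genes to between 392 and 1023 FPKM in NC and between 86.6 and 272 FPKM in MF, in the direction of Sox15, Tcf7 and Mael. In the direction of Sox4, Sox5 and Sox6, 20 of 26 listed cardiomyocyte genes summed to between 67.7 and 141 FPKM in NC and between 236 and 966 FPKM in MF. The 17 deposited of 22 fibroblast and mesenchyme genes summed to between 188 and 358 FPKM in NC and between 337 and 1552 FPKM in MF, so that these groups overlapped. The 4 deposited of 14 neural crest and Schwann lineage genes summed to between 0.952 and 3.73 FPKM in NC and between 16.3 and 27.4 FPKM in MF, and the 3 deposited of 22 neural progenitor genes to between 6.46 and 14.3 FPKM and between 28.2 and 40.7 FPKM. The 8 deposited of 20 endothelial genes had overlapping sums, 15.0 to 45.6 FPKM in NC and 28.1 to 52.8 FPKM in MF. Of the 7 tested, 6 rose and Pecam1 fell, from 8.43, 38.2 and 8.75 FPKM in NC to 6.41, 7.93 and 5.81 FPKM in MF. Of the definitive endoderm list 2 of 13 genes were deposited, at 2.09 to 6.02 FPKM in NC and 10.4 to 29.4 FPKM in MF, and of the extraembryonic endoderm list 2 of 14, at 3.98 to 6.49 FPKM and 12.5 to 26.0 FPKM. Of all 1651 tested genes, 62.1% were called higher and 35.4% lower with library totals. With TMM 291 were called higher and 589 lower, and with median-of-ratios scaling 158 and 507. The counts of markers in each list are read against those numbers, since every deposited gene was selected as different. The number of rises called depended on scaling. Of 18 tested cardiomyocyte genes 18 rose with library totals, 11 with TMM and 8 with median-of-ratios scaling. Of 17 fibroblast and mesenchyme genes 17, 10 and 10 rose, with Fn1 turning direction under the last. In the same order, 6, 1 and 0 endothelial, 4, 3 and 3 neural crest, 2, 1 and 0 neural progenitor, 2, 0 and 0 definitive endoderm and 2, 1 and 1 extraembryonic endoderm genes rose. All 8 pluripotency genes and all 11 germ cell genes of the lists fell under each scaling. Gm4969, a germ cell gene outside the list, was higher in MF. No deposited marker had 0 counts throughout a group, and defining markers outside the authors' selection, such as Pou5f1, Nanog and Nkx2-5, were not analysed here. The part of these cell types in the values of the HMG genes was not tested, and in bulk RNA fewer cells of a type and less RNA per cell cannot be told apart.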

How the data were processed

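Gene expression was measured by RNA sequencing of poly-A RNA in 3 NC and 3 MF libraries. The submitters' processing notes name HISAT2 2.0.5, featureCounts and mm10 but no settings. Per the file headers each table gives, for every gene, its raw count and FPKM, a signal normalized by size factors, and from the authors' comparison a log2 fold change with raw and adjusted p-value. For each library the size factor was read as the median over genes of deposited count divided by deposited signal. The library total was read as the median over genes of the total implied by count, FPKM and gene length. The total divided by the size factor was 1.62986e+07 in every library, so the authors' size factors were in proportion to the library totals. The deposited genes take 5.68% to 10.4% of those totals. Rows without a gene name (48) took 0.0134% to 0.0390% of the totals and stayed out of the tests.

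The counts were tested with edgeR 4.0.16 in R 4.3.3 (quasi-likelihood, group as the only term, two-sided, recovered totals as library sizes), with Benjamini-Hochberg adjustment at 0.05 over the named genes that averaged 0.5 FPKM or more. The SE is the log2 fold change divided by the square root of the F statistic. Lists were counted and not tested. Every HMG gene is named, and up to 4 members with the smallest p of each other pathway list. Sfrp4, Rspo2, Matn4, Pecam1 and Fn1 are named outside that rule. The HMG genes and lists were chosen with earlier results of these data known. Alternatives were DESeq2 1.42.0, limma 3.58.1 on log2(FPKM + 1) and log2(FPKM + 0.1), other scalings and filters, a replicate block and left-out libraries. The edgeR fit with library totals and no block was run on simulated counts in which, unlike here, only a minority of the genes changed. The alternatives were not tested in that way.

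Replicate numbers are shared between groups. Across 1651 genes, the deviation from the group mean correlated between the NC and MF library of a number at 0.405 (number 1), 0.536 (number 2) and 0.354 (number 3). The numbers were taken as pairs only in the replicate block, on the values alone and without a label that says so. Every other fit, the reported one included, was unpaired. However, NC replicate 3 correlated at 0.540 with MF replicate 1.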

Additional observations from a re-analysis of the deposited data

How the results depend on the processing

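The calls depended on scaling, filter, the number of tests and single libraries. In edgeR, 1026 genes were higher and 584 lower, among them 2 and 3 HMG genes. Of the 2 higher ones, Sox6 passed the filter only through MF. Median-of-ratios scaling gave 158 higher genes and 0 higher HMG genes, with 862 genes at an unadjusted p under 0.05, and TMM gave 291 and 1. Without a filter 5 HMG genes were called higher. A filter at 2 FPKM, which tested 1034 genes, left 611 and 369 genes and 1 higher HMG gene. Over 19069 tests edgeR called 0 genes in each direction, and 0 HMG genes, with 1613 genes at an unadjusted p under 0.05; ranks were counted among deposited genes alone, so these counts are lower bounds. Added after seeing the data, DESeq2 over 19069 tests called 479 and 119 genes with 1 and 1 HMG genes, and the replicate block over 19069 tests called 376 and 128 genes with 1 and 2 HMG genes. At the reported adjustment the replicate block called 1030 and 590 genes and the same numbers of HMG genes, 2 and 3. DESeq2, limma with either pseudocount and leaving out both libraries numbered 2 also called 2 and 3 HMG genes. Leaving out each library in turn gave 12 to 996 higher and 0 to 582 lower genes, and 0 to 2 higher and 0 to 3 lower HMG genes. The lowest counts were without MF replicate 3, with 858 genes at an unadjusted p under 0.05. No HMG gene changed direction under any alternative run. The authors selected these genes as differing in the same libraries, so a kept direction is no independent evidence. A count of 0 allows up to 3 counts, which is 0.156 to 0.201 FPKM for a gene of 1 kb, and covers counting error alone.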
